A study of Mus musculus with 11 samples.

Results

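Brain endothelial cells line the vessels of the cortex, and 10 genes that mark these cells or build the blood-brain barrier were examined in a mouse model of amyloid deposition with and without Abi3. The genes Cldn5, Cdh5, Pecam1, Slc2a1, Abcb1a, Slco1a4, Flt1, Tek, Ly6c1 and Itm2a were matched by symbol to the count tables, and all 10 of them were found among the 53700 gene identifiers listed there. All 10 were also among the 17626 genes that passed the filter on low counts. Abi3 encodes an actin regulator known from microglia, and the comparison asks how its deletion alters gene expression in a brain with amyloid.

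RNA was measured by QuantSeq, in which reads are taken from the 3′ ends of polyadenylated transcripts. The tissue was cerebral cortex of 8-month-old female 5xFAD mice, with strain given as C57BL/6. The 6 control animals kept both copies of Abi3 (Abi3+/+) and the 5 knockout animals had none (Abi3-/-). Animals of both genotypes carried the 5xFAD transgenes, which bear mutations of familial Alzheimer's disease and are driven by a Thy1 promoter that is active in neurons, so vessel cells are not those in which the promoter drives them. The knockout allele is a null allele that removes the gene in every cell type, not in microglia alone. It was made on C57BL/6N, whereas the transgenic line came on a mixed C57BL/6 and SJL background, and by the methods of the study all experimental mice were heterozygous for a natural Trem2 variant of SJL origin. Mice were perfused with buffered saline, which clears most blood from the vessels. The labels do not say whether the animals were littermates, and 1 library was made per animal.

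The blood-brain barrier rests on endothelial cells that are sealed by tight and adherens junctions, carry few vesicles, and hold their own set of nutrient carriers and efflux pumps. This state is kept up by Wnt and Norrin signals from neural cells and by contact with pericytes and astrocyte endfeet. In amyloid disease the vessel wall is of interest because it is a route by which amyloid-beta leaves the brain and because vessels themselves can collect amyloid.

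In cortex of 5xFAD mice, none of the 10 endothelial genes differed between genotypes past the threshold used. Cdh5, the cadherin of endothelial adherens junctions, had the largest fold change, at 0.529 times the Abi3+/+ level (95% interval 0.314 to 0.892). It missed the threshold once adjusted over all genes. With the share of reads outside annotated genes as a covariate, its log2 fold change moved from -0.92 to -0.10. Flt1, a receptor for VEGF, was at 1.20 times the Abi3+/+ level (95% interval 0.977 to 1.48), and the other 8 genes lay between 0.757 and 1.06 times. The total over the 10 genes was 1191 ± 140 (SD, n = 6) normalized counts in Abi3+/+ and 1230 ± 98.8 (SD, n = 5) in Abi3-/- mice. In a homogenate of whole cortex, fewer endothelial cells and less RNA per cell cannot be told apart.

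The control regions of 3 of these genes are shown because they represent the junction, receptor and carrier groups and differ in the motifs they hold. Each window spans 250 bases before to 50 bases after the annotated start in RefSeq, on build GRCm38.p6, and is written in the direction of transcription. Capitals mark the core GGAAG of ETS factors, a family that includes the endothelial regulators Erg and Fli1, and the core ACAAT of SOX factors, both searched on either strand (as CTTCC and ATTGT on the other). The Cldn5 window (chr16:18776597-18776896, plus strand) held neither motif, the Flt1 window (chr5:147725962-147726261, minus strand) held 3 ETS cores, and the Slco1a4 window (chr6:141856171-141856470, minus strand) held 2 ETS cores and 3 SOX cores.
Cldn5: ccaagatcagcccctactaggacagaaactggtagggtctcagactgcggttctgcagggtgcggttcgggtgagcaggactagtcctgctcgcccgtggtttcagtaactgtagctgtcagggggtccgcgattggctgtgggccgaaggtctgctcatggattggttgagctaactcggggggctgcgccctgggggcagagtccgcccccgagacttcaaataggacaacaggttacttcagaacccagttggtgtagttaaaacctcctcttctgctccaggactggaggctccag
Flt1: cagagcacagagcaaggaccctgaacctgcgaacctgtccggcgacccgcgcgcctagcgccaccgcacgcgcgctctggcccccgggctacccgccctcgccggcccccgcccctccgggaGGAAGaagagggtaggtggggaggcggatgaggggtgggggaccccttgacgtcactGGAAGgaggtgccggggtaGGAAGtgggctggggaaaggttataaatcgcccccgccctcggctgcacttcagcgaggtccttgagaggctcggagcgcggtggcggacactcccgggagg
Slco1a4: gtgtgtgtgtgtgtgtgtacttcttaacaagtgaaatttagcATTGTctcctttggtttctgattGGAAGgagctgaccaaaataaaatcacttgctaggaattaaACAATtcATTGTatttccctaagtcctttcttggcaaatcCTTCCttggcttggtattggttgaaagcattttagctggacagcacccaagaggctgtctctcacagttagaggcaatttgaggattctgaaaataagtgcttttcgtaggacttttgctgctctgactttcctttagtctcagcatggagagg

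Windows were found for 8 of the 10 genes, all except Cdh5 and Pecam1. An ETS core stood in a window of 5 of the 8 genes, and 71.1% of all 27025 promoter windows held one. A SOX core stood in 2 of the 8, Tek and Slco1a4, and in 31.6% of all windows. A match of 5 letters is a description of the sequence and not evidence of binding.

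The libraries held 3202310 to 5501958 reads in genes, and the share of these reads that fell on the 10 endothelial genes was 0.0285 to 0.0367% per animal. At this depth 3 reads, taken as the smallest amount told from none, equal 0.545 to 0.937 CPM (reads scaled to the library total), a floor that covers counting error only. The knockout was seen in the reads, as Abi3 had 19.4 ± 11.1 (SD, n = 6) normalized counts in Abi3+/+ mice and 0 in 4 of the 5 Abi3-/- mice, with 2.02 in the fifth. Reads outside annotated genes, per 100 reads in genes, were fewer in Abi3-/- (54.0 ± 4.99, SD, n = 5) than in Abi3+/+ libraries (65.9 ± 3.67, SD, n = 6; exact permutation test, two-sided, p = 0.00649, adjusted over 4 library measures 0.0260). Knockout animal 4 had 62.5 such reads, within the Abi3+/+ range of 59.3 to 68.8, and the other 4 knockout animals had 49.8 to 53.7. Fewer genes had a count in Abi3-/- libraries (17785 ± 243, SD, n = 5) than in Abi3+/+ libraries (18445 ± 345, SD, n = 6; exact permutation test, two-sided, p = 0.0130, adjusted 0.0260). This number depends on depth, and reads in genes were 3457200 ± 301866 (SD, n = 5) in Abi3-/- and 4213426 ± 958976 (SD, n = 6) in Abi3+/+ libraries (exact permutation test, two-sided, p = 0.152, adjusted 0.202). For the fourth measure, reads aligned to several places, the p was 0.355 by the same exact permutation test.

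Genotypes were compared gene by gene with DESeq2, with p-values adjusted by Benjamini-Hochberg over all genes and a threshold of 0.05, and values below are normalized counts, that is reads scaled for library size. Of all 17626 genes, 95 passed (0.539%), 60 higher (0.34%) and 35 lower (0.199%) in Abi3-/- mice. Of the 10 endothelial genes 0 passed. DESeq2 withholds an adjusted p from genes of low mean count, and such genes could not pass. An adjusted p was given to 6487 of the 17626 genes and to 7 of the 10. With total-count scaling the split over all genes was 14 higher and 39 lower, and again 0 of the 10 passed. An unadjusted p under 0.05 was found for 1 of the 10, Cdh5, and for 8.58% of all genes (9.46% of those averaging 10 normalized counts or more). Genes lower in Abi3-/- mice with such a p were 4.44% of all genes. In Abi3-/- compared to Abi3+/+ cortex, 4 of the 10 estimates were higher and 6 lower, with a median log2 fold change of -0.04, and over all genes the median was -0.003. The values of the 2 genotypes overlapped for all 10 genes, whereas 1.04% of all genes showed no overlap. Estimates thus lay on both sides of 0, and the widest intervals were those of the genes with fewest reads.

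**Figure D1:**
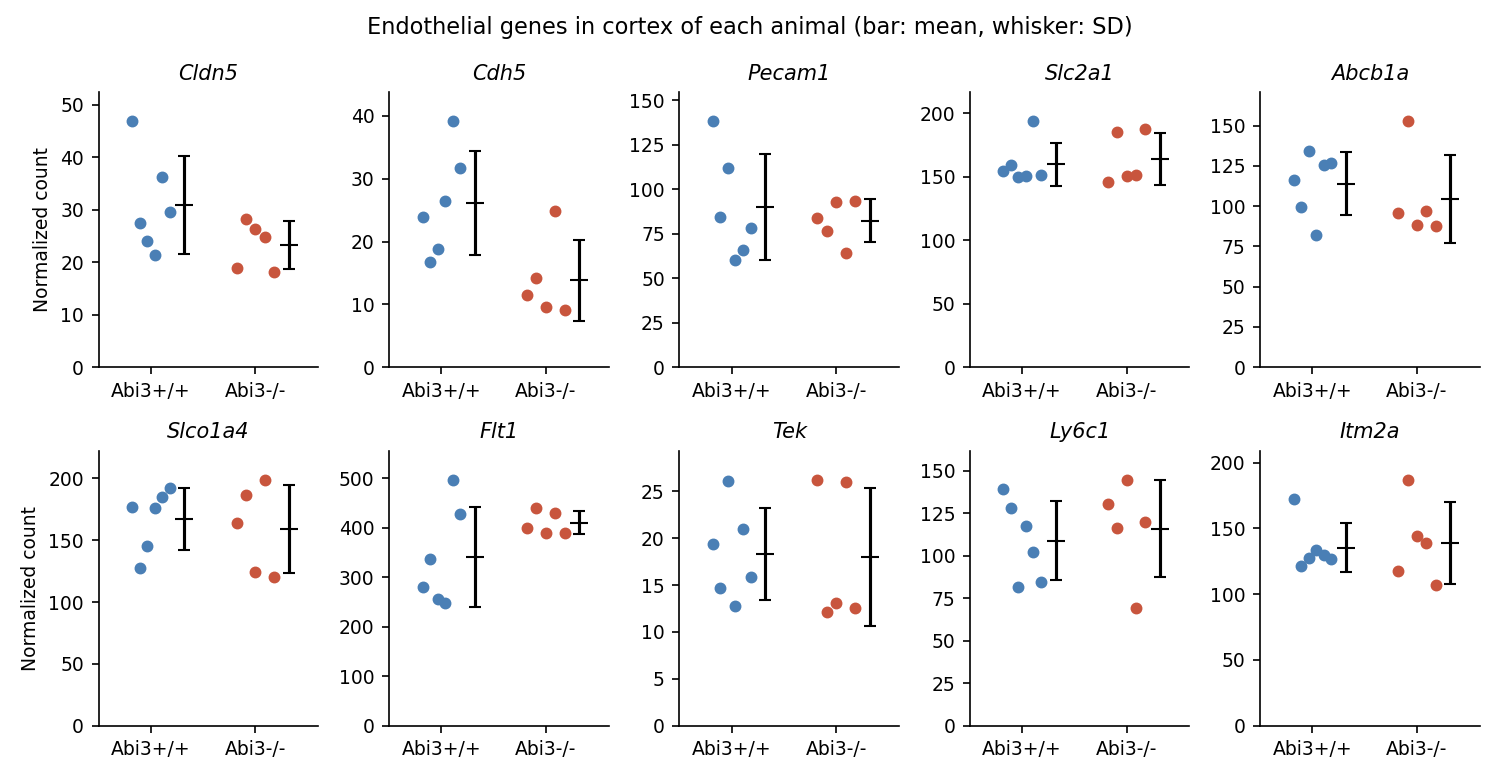
Normalized counts of the 10 endothelial genes in each animal, with Abi3+/+ in blue (n = 6) and Abi3-/- in red (n = 5), the horizontal bar for the mean and the whisker for the SD, and every vertical axis starting at 0. The groups overlap in every panel, 4 of the 5 knockout values of Cdh5 lie below all control values, and the knockout values of Flt1 sit close together within the control range.

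The junction and adhesion genes were examined first. Cdh5 (ENSMUSG00000031871, chr8:104828231-104871143 on GRCm39, the build of the gene coordinates given from here on) encodes VE-cadherin, which joins neighbouring endothelial cells. In Abi3+/+ mice it had between 16.7 and 39.1 normalized counts, with a median of 25.2. The Abi3-/- mice had 11.5, 14.1, 9.55, 24.8 and 9.10 normalized counts. Thus 4 of 5 knockout animals lay below every control animal, and the highest knockout value, that of animal 4, lay close to the control median. The means were 26.1 ± 8.32 (SD, n = 6) and 13.8 ± 6.47 (SD, n = 5), a log2 fold change of -0.92 (SE 0.385, 95% interval -1.67 to -0.16; DESeq2, unadjusted p = 0.017). DESeq2 gave Cdh5 no adjusted p because its mean count is below the filter the tool sets, here 70.4, and with that filter switched off the Benjamini-Hochberg adjusted p was 0.468. It rested on 8 to 54 reads per animal.

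The animal with the control-like Cdh5 value was also the knockout animal with a control-like share of reads outside genes. With that share entered as a covariate, the log2 fold change of Cdh5 was -0.10 (DESeq2, unadjusted p = 0.878), and without knockout animal 4 it was -1.23 (DESeq2, unadjusted p = 0.0028). Without Abi3+/+ animal 5, the highest control, it was -0.76 (DESeq2, unadjusted p = 0.0613). Since the share itself differed between genotypes, its part and that of genotype cannot be told apart in these libraries.

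Cldn5 (ENSMUSG00000041378, chr16:18595597-18597012) encodes claudin-5, the main claudin of brain endothelial tight junctions. Its values ran from 21.3 to 46.8 normalized counts in Abi3+/+ mice, with a median of 28.5. In the Abi3-/- mice they were 18.9, 28.3, 26.3, 24.8 and 18.2. All 5 knockout values were below the control mean, and 2 of them were below the lowest control. Its log2 fold change was -0.40 (SE 0.310, 95% interval -1.01 to 0.21; DESeq2, unadjusted p = 0.195), an interval that runs from 0.497 to 1.15 times the control level. Like Cdh5 it was a gene of low counts, with 16 to 50 reads per animal and no adjusted p.

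Pecam1 (ENSMUSG00000020717, chr11:106543689-106641454) encodes the adhesion molecule CD31 of endothelial cells, platelets and some leukocytes. It lies on the chromosome of Abi3, 10.8 Mb away. Normalized counts ranged from 60.5 to 138 in Abi3+/+ mice, with a median of 81.3. The knockout values, 83.9, 76.8, 93.1, 64.4 and 93.3, all lay inside that range. Its log2 fold change was -0.12 (SE 0.218, 95% interval -0.54 to 0.31; DESeq2, Benjamini-Hochberg adjusted p = 0.890). In the reported fit the 3 adhesion genes therefore all had estimates below 0, and only the interval of Cdh5 lay wholly below 0. Their intervals were of unequal width. Without Abi3+/+ animal 1, Pecam1 turned to 0.043 and Cldn5 was -0.25. With the covariate for reads outside genes, Cldn5 was -0.17.

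The carriers and the efflux pump of the barrier were examined next. With the covariate for reads outside genes their log2 fold changes were -0.15 (Slc2a1), -0.47 (Abcb1a) and 0.29 (Slco1a4), and the values below are without it. Slc2a1 (ENSMUSG00000028645, chr4:118965908-118996365), which encodes the glucose carrier GLUT1, had 160 ± 16.8 (SD, n = 6) normalized counts in Abi3+/+ and 164 ± 20.5 (SD, n = 5) in Abi3-/- mice. In the control group 5 animals lay between 150 and 159 and animal 5 stood apart at 193, and in the knockout group animals 2 and 5 had 185 and 188 while the other 3 had 146, 150 and 151. Its log2 fold change was 0.04 (SE 0.133, 95% interval -0.23 to 0.30), the narrowest interval of the 10 genes, and it bounded the knockout level to 0.855 to 1.23 times the control (DESeq2, Benjamini-Hochberg adjusted p = 0.948). GLUT1 is also made by astrocytes, so that reads of this gene need not come from vessels alone.

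Abcb1a (ENSMUSG00000040584, chr5:8710022-8798575) encodes P-glycoprotein, the pump that returns drugs and other lipophilic compounds to the blood. Control values ran from 81.8 to 134 normalized counts, with a median of 121. The knockout values were 95.4, 153, 88.3, 97.1 and 87.6, so 4 of 5 lay below the control mean and animal 2 lay above every control. The log2 fold change was -0.12 (SE 0.186, 95% interval -0.49 to 0.24; DESeq2, Benjamini-Hochberg adjusted p = 0.854). Its paralog Abcb1b had 247 reads over all 11 animals, compared with 1247 for Abcb1a.

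Slco1a4 (ENSMUSG00000030237, chr6:141751165-141802036) encodes an organic anion carrier of the rodent barrier. It had 128 to 193 normalized counts in Abi3+/+ mice, with a median of 177, and 164, 187, 124, 199 and 121 in Abi3-/- mice. The knockout values reached beyond the control range on both sides, with 2 below and 1 above it. The estimate, a log2 fold change, was -0.07 (SE 0.161, 95% interval -0.39 to 0.25; DESeq2, Benjamini-Hochberg adjusted p = 0.917).

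Flt1 (ENSMUSG00000029648, chr5:147498414-147662826) encodes VEGF receptor 1, which binds VEGF-A and limits the signal through Kdr. It held the most reads of the 10 genes, 245 to 686 per animal. Normalized counts in Abi3+/+ mice ran from 247 to 497, with a median of 309, and 2 animals, numbers 5 and 6, stood at 497 and 427. The Abi3-/- mice had 401, 440, 390, 430 and 390. All 5 knockout values were above the control mean of 341, and none was above the highest control. The log2 fold change was 0.27 (SE 0.152, 95% interval -0.03 to 0.56; DESeq2, unadjusted p = 0.0815, Benjamini-Hochberg adjusted p = 0.496). The coefficient of variation was 29.8% among Abi3+/+ and 5.71% among Abi3-/- mice, a description for which no test was run. Over the 11 fits that each leave out 1 animal, the log2 fold change ran from 0.19 to 0.41. It was highest without Abi3+/+ animal 5 (DESeq2, unadjusted p = 0.00256, Benjamini-Hochberg adjusted p = 0.160). It was lowest without Abi3+/+ animal 4 (DESeq2, unadjusted p = 0.205). With the covariate for reads outside genes it was 0.36 (DESeq2, unadjusted p = 0.200).

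Tek (ENSMUSG00000006386, chr4:94627291-94763224) encodes Tie2, the receptor for the angiopoietins. It had 12.8 to 26.1 normalized counts in Abi3+/+ mice, with a median of 17.6. In Abi3-/- mice animals 1 and 4 had 26.2 and 26.0, and the other 3 had 12.1, 13.1 and 12.5, so the knockout values fell near the 2 ends of the control range. The genotypes differed by a log2 fold change of -0.02 (SE 0.380, 95% interval -0.76 to 0.73; DESeq2, unadjusted p = 0.962). With 11 to 29 reads per animal, the interval ran from 0.589 to 1.66 times the control level.

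Ly6c1 (ENSMUSG00000079018, chr15:74915847-74920686) encodes a surface antigen of brain endothelial cells and of some leukocytes. Values ran from 81.6 to 139 normalized counts in Abi3+/+ mice, with a median of 110, and were 130, 116, 144, 68.9 and 119 in Abi3-/- mice. Knockout animal 4 was the lowest of all animals and animal 3 the highest. The log2 fold change was 0.09 (SE 0.195, 95% interval -0.29 to 0.47; DESeq2, Benjamini-Hochberg adjusted p = 0.913). The last 300 bases of its transcript match those of the neighbouring gene Ly6c2 at 98.0% with 6 mismatches, so reads that fit both genes equally were not counted and the Ly6c1 count is uncertain. Ly6c2 was given 1 read over all animals. None of the other 9 endothelial genes had a match of this kind at its transcript end.

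Itm2a (ENSMUSG00000031239, chrX:106418945-106447419) encodes a membrane protein that is enriched in brain endothelium and pericytes. It had 121 to 172 normalized counts in Abi3+/+ mice, with a median of 129, and 117, 187, 144, 139 and 107 in Abi3-/- mice. Control animal 1, at 172, stood apart from the other 5 controls, which lay at 134 or below. The log2 fold change was 0.04 (SE 0.161, 95% interval -0.27 to 0.36; DESeq2, Benjamini-Hochberg adjusted p = 0.947).

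The endothelial genes were also tested with other tools. With the filter of DESeq2 switched off 0 of 10 passed (0.323% of all genes), with edgeR 0 of 10 (0.21%), with limma 0 of 10 (0.113%) and with the covariate 0 of 10 (0.017%). Cdh5 and Flt1 had an unadjusted p under 0.05 with edgeR and with limma, 2 of 10 genes, where 8.59% and 8.28% of all genes had one. For Flt1 these were 0.0493 with edgeR (Benjamini-Hochberg adjusted 0.578) and 0.022 with limma (adjusted 0.502), and for Cdh5 they were 0.0196 (adjusted 0.474) and 0.0322 (adjusted 0.550).

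**Figure D2:**
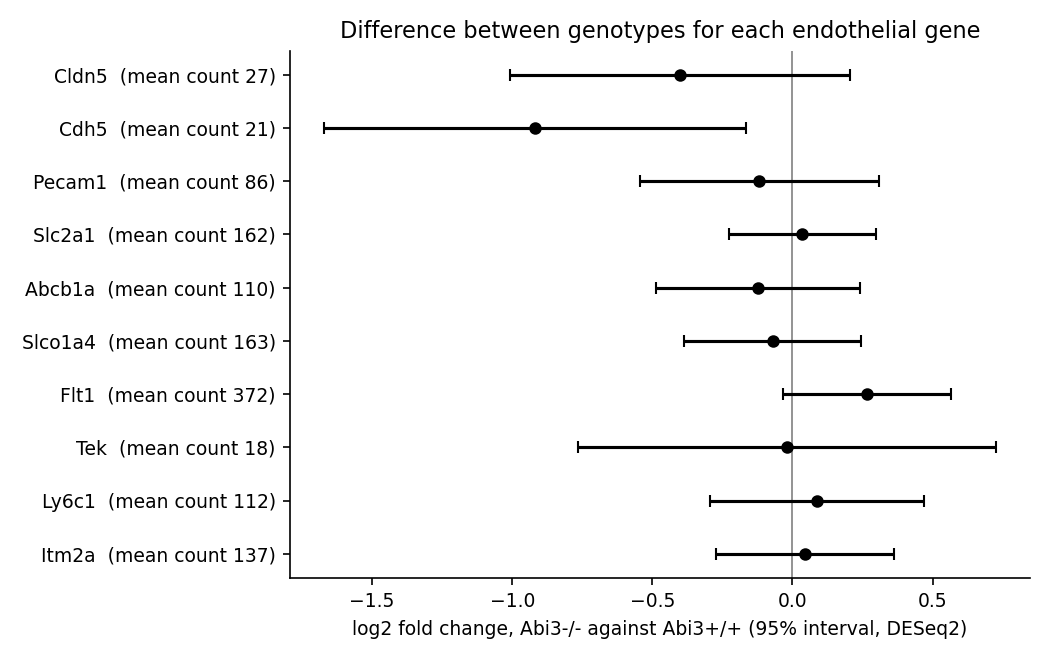
Log2 fold change of each endothelial gene in Abi3-/- against Abi3+/+ cortex on the horizontal axis, with points for the DESeq2 estimate, bars for the 95% interval, and the mean normalized count beside each name. The interval of Cdh5, from -1.67 to -0.16, is the only one that does not include 0, and Slc2a1 has the narrowest interval, from -0.23 to 0.30.

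The spread between animals of the same genotype was compared with what counting alone would give. For Slc2a1 the coefficient of variation within genotypes was 11.4%, against 7.93% from counting, and for Flt1 it was 22.5% against 5.31%. The 3 genes with the fewest reads had the largest counting error, Cldn5 (25.9% against 19.8%), Tek (33.9% against 24.5%) and Cdh5 (39.2% against 25.0%). In all 10 genes the spread exceeded the counting error.

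The 10 genes did not rise and fall together as 1 block across animals, though some varied alike. After centring within genotype, the correlation of each gene with the mean of the other 9 ran from -0.29 to 0.79. It was highest for Cldn5 (0.79), Abcb1a (0.62) and Itm2a (0.53), and below 0 for Ly6c1 (-0.29) and Pecam1 (-0.11). Abi3-/- animal 2 was above its genotype mean in 8 genes. Abi3+/+ animal 1 was the highest control in 4 genes, Cldn5, Ly6c1, Pecam1 and Itm2a, but its Flt1 value was below the control median. Abi3+/+ animal 4 was the lowest control in 5 genes. Among the knockouts, animal 2 was the highest in 4 genes and animal 5 the lowest in 5. Knockout animal 4 combined the highest Cdh5 and Slco1a4 values of its genotype with the lowest Ly6c1 and Pecam1 values. Summed over the 10 genes, animals ranged from 1028 to 1394 normalized counts in Abi3+/+ and from 1146 to 1399 in Abi3-/- mice.

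**Figure D3:**
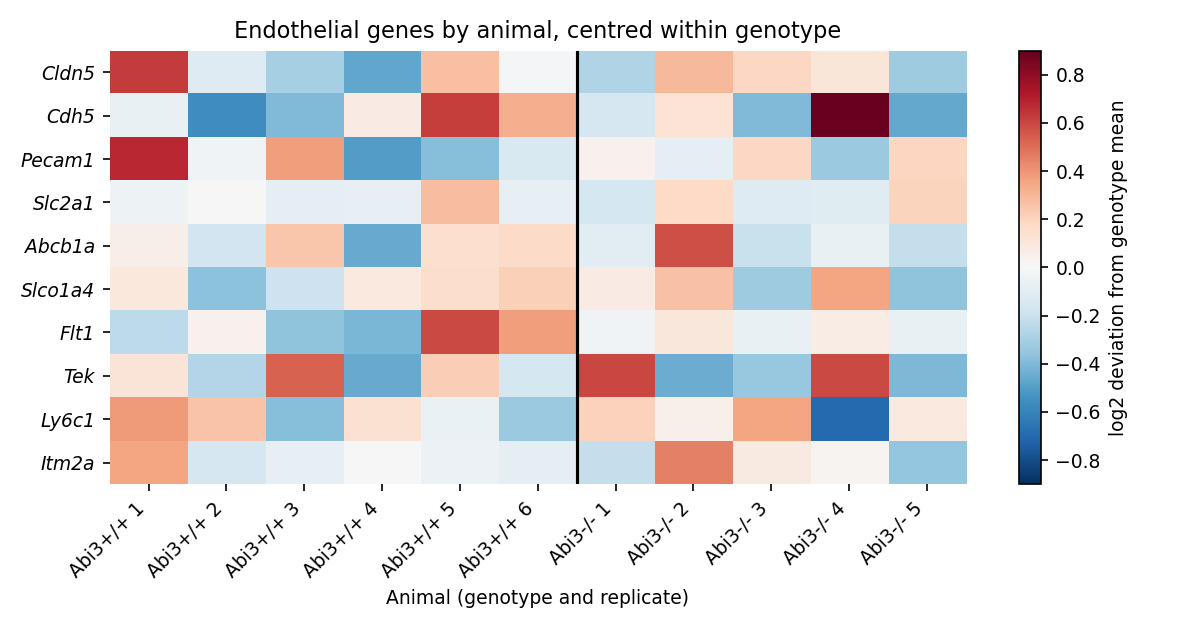
Deviation of each animal from its genotype mean, on the scale of log2(normalized count + 1), for the 10 endothelial genes (rows) in 6 Abi3+/+ and 5 Abi3-/- animals (columns, separated by the black line), with red for higher and blue for lower. No column is of 1 colour throughout, and the largest deviations are those of Cdh5 (0.89) and Ly6c1 (-0.70) in Abi3-/- animal 4.

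The likeness of single genes to the mean of the 10 endothelial genes was described over the 11 animals, after centring within genotype. Among 9667 genes (mean normalized count 30 or more), the 5 with the highest Pearson correlation were Os9 (0.95), Fzd2 (0.89), Tm9sf4 (0.89), Ptprz1 (0.89) and Nnat (0.89). These were picked as the highest of 9667 and carry no test. Of the 9667 genes only 72 came from the vessel lists described next. None of them was among the 20 most alike, which says little at that share. The 72 genes of those lists that were compared had a median correlation of 0.23, and all 9667 had a median of -0.02.

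Other genes of the vessel wall were counted in 7 lists, with 119 symbols, of which 114 were tested. DESeq2 gave an adjusted p to 47 of the 114, and to 6487 of all 17626 genes. The rest could not pass. Across the 7 lists 1 gene passed, Slc38a3, which was lower in Abi3-/- mice, and 0 were higher, where 0.199% and 0.34% of all genes passed in those directions. An unadjusted p under 0.05 was found for 5 of the 114 (4.39%), and for 8.58% of all genes. The estimates were higher for 50 and lower for 64, with a median log2 fold change of -0.03.

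Slc38a3 (ENSMUSG00000010064, chr9:107527815-107547018) encodes a glutamine carrier of barrier endothelium that astrocytes and neurons also make. It had 114 to 172 normalized counts in Abi3+/+ mice, and 60.8, 127, 99.1, 54.2 and 91.0 in Abi3-/- mice. In Abi3-/- animals 1, 3, 4 and 5 it was below every control, and in animal 2 it was within the control range. The means were 142 ± 22.6 (SD, n = 6) and 86.5 ± 29.8 (SD, n = 5), a log2 fold change of -0.71 (SE 0.201; DESeq2, Benjamini-Hochberg adjusted p = 0.0378). The call was lost with edgeR (adjusted p = 0.0864), with limma (adjusted p = 0.0915) and without DESeq2's filter (adjusted p = 0.0913), with log2 fold changes of -0.72, -0.78 and -0.71. With the covariate for reads outside genes the log2 fold change was -1.42 (DESeq2, unadjusted p = 4.53e-05, Benjamini-Hochberg adjusted p = 0.144). The call held in 3 of the 11 fits that each leave out 1 animal (7 of the 11 gave it an adjusted p), those without Abi3+/+ animal 4, Abi3-/- animal 2 or Abi3-/- animal 3.

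Among the other 19 barrier carriers tested, 0 passed. An adjusted p was given to 12 of the 20, Slc38a3 included. Slc39a10, a zinc importer, had a log2 fold change of 0.26, Tfrc, the transferrin receptor that takes iron across the barrier, -0.31, and Slc6a6, the taurine carrier, -0.16, and these 3 had an unadjusted p under 0.05 without passing. These 3 were picked out with their values known. The median of the 20 carriers was -0.02, with 9 estimates higher and 11 lower.

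DESeq2 gave 8 of the 16 tight and adherens junction genes an adjusted p. Of the 16 genes 0 passed, with 9 estimates higher, 7 lower and a median log2 fold change of 0.01. Those with the smallest p were Ctnnb1 (0.13), which encodes beta-catenin, the partner of cadherins, and Jam2 (-0.31), a junctional adhesion molecule. Neither reached an unadjusted p under 0.05, and no gene of this list did. Other partners of Cdh5 at the junction thus had estimates on both sides of 0.

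Among 14 genes of the VEGF and angiopoietin pathways 0 passed (6 were given an adjusted p), with a median of -0.15. The ligand Vegfa (-0.25) and the receptor Kdr (-0.25) had the smallest p of those averaging 10 normalized counts or more, and the estimate for Flt1, which binds the same ligand, was 0.27. Vegfc, a lymphatic growth factor that fell outside the naming rule at 12.7 ± 5.38 (SD, n = 6) and 4.18 ± 3.32 (SD, n = 5) normalized counts, had a log2 fold change of -1.61 with an unadjusted p of 0.0104 in DESeq2 and no adjusted p.

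An adjusted p was given to 2 of 18 Wnt and Norrin pathway genes and 13 of 32 other endothelial genes. It was given to 5 of 9 genes of arterial or venous vessels and 1 of 5 activation genes. Of the 18 Wnt and Norrin pathway genes 0 passed, with a median of -0.04. Wnt7b, a ligand that maintains the barrier, had -0.39 and Axin2, a target gene of the pathway, -0.30. Of 32 other endothelial genes 0 passed, with a median of -0.06, and the lowest p values belonged to Fli1, an ETS factor of endothelial cells and leukocytes (-0.53), and Ly6e (0.19). Of 9 genes that mark arterial or venous vessels 0 passed, with a median of -0.18, and Nr2f2, the venous regulator, had 0.44. Ackr1, at 0.28, shares 493 bases on the same strand with the neuronal gene Cadm3, and its reads cannot be assigned with certainty. Of 5 activation genes 0 passed, with a median of 0.18, and Edn1, which encodes endothelin, had -0.69 while the leukocyte adhesion molecule Vcam1 had 0.18.

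**Figure D4:**
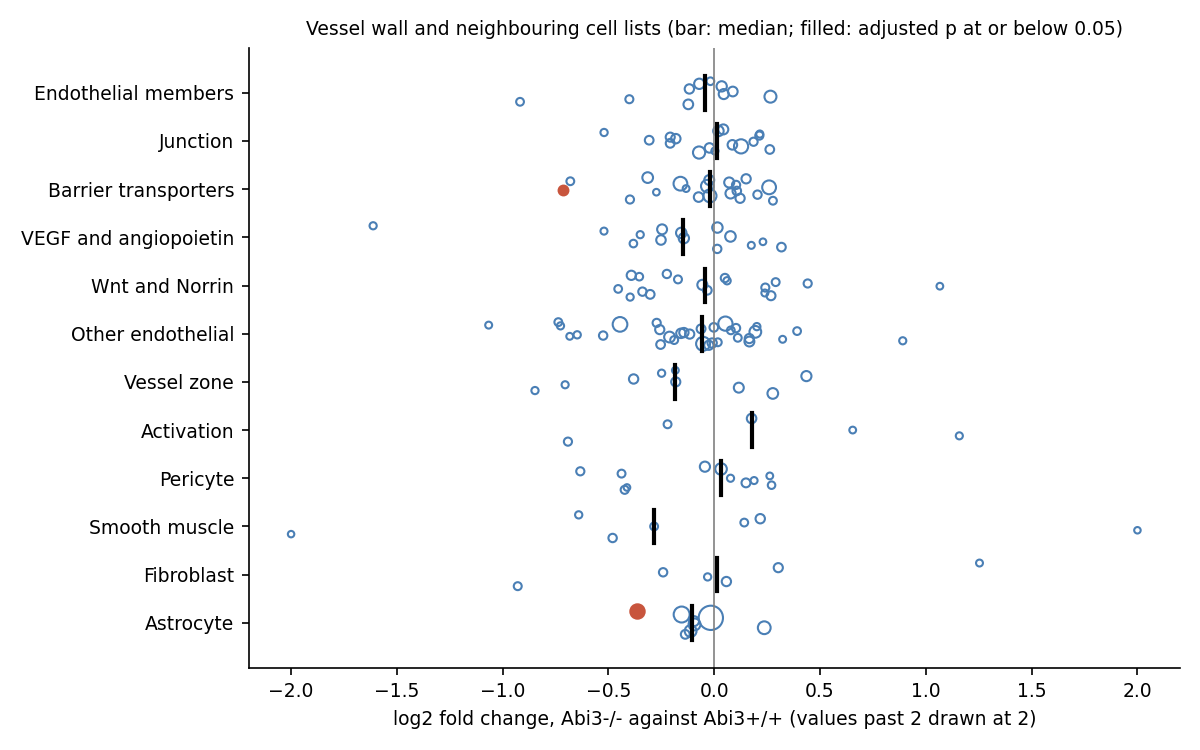
Log2 fold change in Abi3-/- against Abi3+/+ cortex for each gene (circle, larger for a higher mean count) of the endothelial genes, 7 further vessel lists and 4 lists of neighbouring cells, with a black bar for the list's median and filled circles for an adjusted p at or below 0.05. Filled circles appear for Slc38a3 among the carriers and Slc4a4 among astrocyte genes, and 2 smooth muscle genes beyond the axis are drawn at its ends.

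Cells that neighbour the vessel wall, or that could be carried along with the tissue, were read from marker lists. An adjusted p was given to 2 of 11 pericyte, 1 of 7 smooth muscle and 2 of 6 fibroblast genes. Summed pericyte markers reached 564 to 756 normalized counts in Abi3+/+ and 573 to 674 in Abi3-/- mice, with 0 of 11 genes past the threshold. Pdgfrb, the receptor that recruits pericytes, had a log2 fold change of -0.63 (DESeq2, unadjusted p = 0.0439, no adjusted p) and Abcc9 -0.42. Of the 11 pericyte estimates 6 were higher and 5 lower, with a median of 0.03. Smooth muscle markers summed to 135 to 242 and 118 to 299, and 0 of 7 passed, with Acta2 at -0.48 and Tagln at -0.64. The 7 estimates ran from -3.15 to 2.90, 3 higher and 4 lower, with a median of -0.28. An unadjusted p under 0.05 (DESeq2) was found for 1 higher and 1 lower gene. Fibroblast markers summed to 135 to 333 and 167 to 372, and 0 of 6 passed, with Col1a1 at -0.93 (DESeq2, unadjusted p = 0.0332, no adjusted p) and Dcn at 0.30. Estimates were higher for 3 and lower for 3 of the 6. Col1a1 (chr11:94827050-94843868) lies nearer to Abi3 (chr11:95720900-95733302) than Pecam1 does, and an effect of its position was not tested. The summed ranges of these mural and fibroblast lists overlapped between genotypes.

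Astrocyte markers, whose endfeet cover the vessels, summed to 12397 to 14321 normalized counts in Abi3+/+ and 12408 to 13766 in Abi3-/- mice. Slc4a4, the sodium bicarbonate cotransporter, was lower in Abi3-/- mice, at 801 ± 99.1 (SD, n = 5) compared to 1032 ± 81.6 (SD, n = 6) normalized counts, with no overlap (log2 fold change -0.37, SE 0.0857; DESeq2, Benjamini-Hochberg adjusted p = 0.00662). It was the only 1 of 8 astrocyte genes past the threshold, passed in all 11 fits that leave out 1 animal, and missed it with edgeR (adjusted p = 0.0646), with limma (adjusted p = 0.0586) and with the covariate for reads outside genes (log2 fold change -0.16).

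Microglial markers summed to 1612 to 2238 and 1799 to 2486 normalized counts, and 0 of 8 passed (5 were given an adjusted p). C1qa was at 0.47 (DESeq2, Benjamini-Hochberg adjusted p = 0.0783) and Aif1 at 0.49, and 7 of the 8 estimates were higher. C1qa passed in 2 of the 11 fits that leave out 1 animal (DESeq2, lowest Benjamini-Hochberg adjusted p = 0.0163). Neuronal markers summed to 18496 to 20858 and 19734 to 21914, with 0 of 7 past the threshold, Snap25 at 0.18 and Syt1 at 0.11. Cnp, a gene of oligodendrocytes, had 0.30. Their part in the values of the endothelial genes was not tested.

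Red cell genes, which mark blood left in the vessels, summed to 25.1 to 352 normalized counts in Abi3+/+ (median 211) and 7.91 to 389 in Abi3-/- mice (median 21.0). Of these 4 genes 0 passed, and 1 was given an adjusted p. Hba-a1 had a log2 fold change of -1.58 and Hbb-bs of -0.995, values that knockout animal 5 decided. Without it they were -3.59 and -3.08 (DESeq2, unadjusted p = 4.77e-04 and 4.40e-06, no adjusted p). The part of blood RNA in the values of the endothelial genes was not tested. Choroid plexus genes summed to 63.0 to 3605 and 92.9 to 2352, with 0 of 7 passing (1 was given an adjusted p), Clic6 at -0.68 and Ttr at 0.48. Over the 11 fits that leave out 1 animal, Ttr ran from -0.23 to 3.65. It passed in 1 of them (DESeq2, Benjamini-Hochberg adjusted p = 0.0141). Of the T cell genes only Trbc2 (-0.88) was tested, and of the platelet genes 2 were. None of these was given an adjusted p, so none could pass. Cd3d, Cd3e, Cd3g, Cd8a and Nkg7 fell under the filter on low counts.

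**Figure D5:**
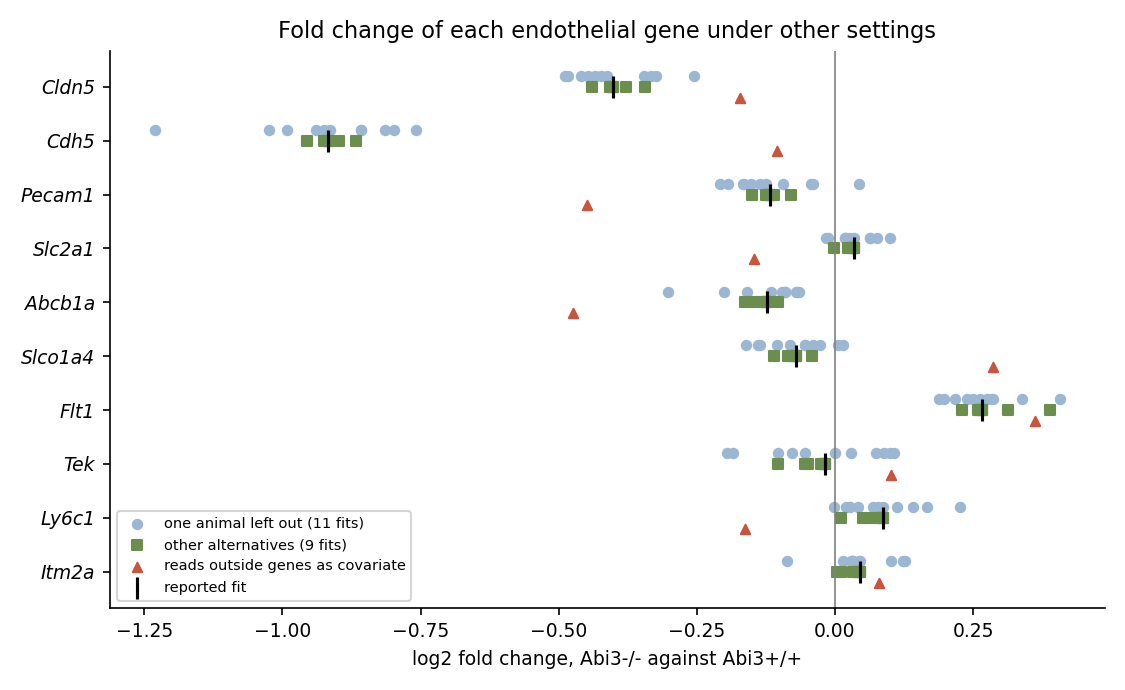
Log2 fold change of each endothelial gene in Abi3-/- against Abi3+/+ cortex, with a black tick for the reported fit, blue circles for 11 fits that each leave out 1 animal, green squares for 9 other alternatives, and red triangles for the fit in which the share of reads outside genes was a covariate. The estimate of Cdh5 lies between -1.23 and -0.76 when 1 animal is left out and at -0.10 with the covariate, and Flt1 stays above 0 in every fit.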

How the data were processed

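RNA of 11 cortices, 1 library each, was read by QuantSeq as single-end reads. The authors trimmed adapters and poly(A) stretches, aligned to GRCm39 with STAR 2.7.3a and assigned reads to Ensembl genes with HTSeq 0.9.1 on the sense strand, as the submitters' processing notes and the methods state. The deposited values are raw counts without normalization or a step that collapses PCR copies, and reads aligned to several places (65.2 to 72.2% of the alignment lines tallied) went to no gene. The values therefore count reads rather than molecules, and genes with near-identical copies may be undercounted.

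Gene names and positions came from GENCODE vM39, which matched 52610 of 53700 identifiers (98.0%). Counts were fitted with DESeq2 1.42.0 (R 4.3.3) on genotype alone, the model of the study, for genes with at least 10 counts in total. Genes averaging 1.5 normalized counts or more were kept, and genes were called at a Benjamini-Hochberg adjusted p of 0.05 or less. The filter of DESeq2 withholds an adjusted p from genes under a mean of 70.4, which left 6487 genes with one. Intervals are normal 95% intervals from the SE. Library measures were compared by exact permutation, two-sided, over the 462 splits of the animals. P-values measure the spread between these animals. Transcript ends were compared with BLAST 2.17.0. The fits were tested on simulated data.

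The 10 genes and all lists were chosen with earlier results of these data known. Named genes are the 10 genes, Abi3, in each other list every gene past the threshold or otherwise the 2 with the smallest p among those averaging 10 normalized counts or more, and the 5 genes most alike the 10. 1 gene named by this rule, and the summed level of its list, are not reported here. Alternatives were edgeR 4.0.16 (quasi-likelihood), limma 3.58.1 (voom with sample weights), TMM and total-count scaling, 2 other filters on low counts, 2 other filter settings of DESeq2, the replicate number as a block, a covariate for reads outside genes, and leaving out each animal. The 95 calls split into 63.2% higher, but total-count scaling gave 26.4% higher.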

Additional observations from a re-analysis of the deposited data

Results flagged for a closer look

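In 84 groups of values (42 genes, each genotype), a sample whose gap to its nearest neighbour took up an unusually large part of the group's range was looked for with Dixon's test, which marks about 4.2 such groups by chance; 7 were found, 3 of them among the 10 endothelial genes. Slc2a1 was 193 normalized counts in Abi3+/+ animal 5, and the next highest control had 159. Abcb1a was 153 in Abi3-/- animal 2, with the next at 97.1. Itm2a was 172 in Abi3+/+ animal 1, with the next at 134.

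Outside the endothelial genes, Abi3 had 2.02 normalized counts in Abi3-/- animal 2 and 0 in the other knockouts, from 2 reads. Hba-a1 and Hbb-bs, the globin genes of red cells, were at 91.0 and 213.9 in Abi3-/- animal 5, where the next knockouts had 12.6 and 31.3. Ttr, a choroid plexus gene, was at 3447 in Abi3+/+ animal 4 and at most 94.7 in the other controls; among the knockouts it was at 1847 in animal 1 and 2270 in animal 5.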

How the results depend on the processing

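In all 10 alternatives and 11 fits that leave out 1 animal, 0 of the 10 endothelial genes passed. Their median log2 fold change was -0.13 to -0.04 over the alternatives and -0.11 to 0.01 when 1 animal was left out. Cdh5, Cldn5 and Abcb1a stayed below 0 and Flt1 above 0 in all 21. The number of all genes past the threshold was 95 as reported, and 37 with edgeR (17 higher, 20 lower), 20 with limma, 53 with total-count scaling (14 higher, 39 lower), 57 with the DESeq2 filter off (29 higher, 28 lower), 3 with reads outside genes as covariate, and 46 to 120 without 1 animal. The count of other vessel genes, 1 as reported (Slc38a3), was 0 with edgeR, limma, the filter off, the replicate block and the covariate, and 0 to 1 without 1 animal, while the log2 fold change of Slc38a3 was -0.71 to -1.42 over the 10 alternatives and -0.90 to -0.59 without 1 animal. With the covariate the sign of Slc2a1 (-0.15), Ly6c1 (-0.16), Slco1a4 (0.29), Tek (0.10), Ctnnb1 (-0.10), Ackr1 (-0.11), Nr2f2 (-0.24), Vcam1 (-0.31) and Dcn (-0.19) turned, and Slc2a1 was -0.0012 with total-count scaling; the cause was not tested. Leaving out 1 animal turned the sign of Slc2a1 (-0.016 to 0.10), Ly6c1 (-0.0026 to 0.23), Pecam1 (-0.21 to 0.043), Slco1a4 (-0.16 to 0.015), Itm2a (-0.088 to 0.13), Tek (-0.20 to 0.11) and Ttr (-0.23 to 3.65).

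The labels do not say whether the replicate numbers of the titles pair the animals. Deviations of same-numbered animals correlated at 0.0184 on average, and those of other pairs at -0.0037. These values cannot decide whether the numbers mark litters or batches. With the replicate block 33 genes passed (20 higher, 13 lower), 0 of the 10 endothelial genes among them, with Flt1 at 0.39 (DESeq2, unadjusted p = 0.012, adjusted p = 0.248) and Cdh5 at -0.87. Depth limits Cldn5, Tek and Cdh5, whose intervals span more than those of the other 7 genes.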
